A study of Mus musculus with 20 samples.

Results

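Glutamate is the main excitatory transmitter of the hippocampus, and its receptors sit in the postsynaptic membrane on a lattice of scaffold proteins. The 32 genes described here code for those receptors and scaffolds: 4 AMPA receptor subunits (Gria1 to Gria4), 5 kainate receptor subunits (Grik1 to Grik5), 7 NMDA receptor subunits (Grin1, Grin2a to Grin2d, Grin3a and Grin3b), 1 delta receptor (Grid1), 7 metabotropic receptors (Grm2 to Grm8) and 8 scaffold genes (Dlg1 to Dlg4, Shank1 to Shank3 and Homer1). They were taken by name from the 33119 genes of the deposited table, by a rule that uses the names and no expression value. Hippocampal RNA came from 20 mice aged 16 months on a C57BL/6 background. All carried 2 copies of a targeted replacement of the mouse Apoe gene by human APOE, so no group kept the mouse gene. With the human APOE3 allele (hAPOE3) there were 5 females, numbered S144 to S148, and 5 males, numbered S154 to S158. With the APOE4 allele (hAPOE4) the 5 females carried the numbers S164 to S168 and the 5 males S174 to S178. Whole hippocampus was sequenced, so fewer neurons and less RNA per neuron cannot be told apart.

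AMPA receptors carry the fast part of the synaptic current, and the GluA2 subunit coded by Gria2 normally makes their channel impermeable to calcium. NMDA receptors need the GluN1 subunit of Grin1 and gain their kinetics from a GluN2 subunit, with Grin2b prominent early in life and Grin2a later. Kainate receptors modulate transmission on both sides of the synapse. Metabotropic receptors act through G proteins: Grm5 is postsynaptic, while Grm2, Grm3, Grm4, Grm7 and Grm8 mostly damp transmitter release. The Dlg genes code for PSD-95 (Dlg4) and its relatives, which hold receptors in place, and the Shank and Homer1 proteins link them to the layer beneath. The comparisons address how the APOE genotype and chromosomal sex, both of them risk factors of Alzheimer's disease, are reflected in hippocampal transcripts.

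The members are long genes spread over 15 chromosomes. In the GRCm38 annotation their median span was 217.6 kb, from 6.5 kb for Grin3b to 1972.6 kb for Dlg2, and 20 of 32 were longer than 100 kb, against 12.2% of the tested genes with an annotated span (median 17.9 kb). 6 members lie on chromosome 7, which also carries Apoe. Grik5 (chromosome 7, 25009849 to 25072346, minus strand) is the nearest, at 5.31 Mb. RefSeq promoter windows of 300 bases (250 before and 50 after the start) were at hand for 21 members, and 18 of the 21 held 10 or more CG dinucleotides in their richest window, with a median of 22. Among tested genes with a mean of at least 1 CPM (counts scaled to a common library size) and a window, 81.5% reached 10, with a median of 21, so the members were close to other expressed genes in this respect. The 3 members below 10 were Grin3b, Grm6 and Dlg2, and the first 2 were the members at the lowest levels. The windows of Gria2, among the most abundant members with 26 CG dinucleotides, and of Grin3b with 3 and Grm6 with 4 are printed 5′ to 3′ to show that contrast, with each CG in capitals. They are Gria2 at chr3:80802786-80803085 on the minus strand, Grin3b at chr10:79970474-79970773 on the plus strand and Grm6 at chr11:50850435-50850734 on the plus strand, all in GRCm38.p6 from RefSeq.
Gria2: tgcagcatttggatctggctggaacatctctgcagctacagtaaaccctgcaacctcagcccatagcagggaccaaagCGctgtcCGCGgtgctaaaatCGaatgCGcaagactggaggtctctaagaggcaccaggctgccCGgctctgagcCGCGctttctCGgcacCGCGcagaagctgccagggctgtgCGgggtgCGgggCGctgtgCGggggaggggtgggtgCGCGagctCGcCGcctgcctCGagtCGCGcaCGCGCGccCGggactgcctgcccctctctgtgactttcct
Grin3b: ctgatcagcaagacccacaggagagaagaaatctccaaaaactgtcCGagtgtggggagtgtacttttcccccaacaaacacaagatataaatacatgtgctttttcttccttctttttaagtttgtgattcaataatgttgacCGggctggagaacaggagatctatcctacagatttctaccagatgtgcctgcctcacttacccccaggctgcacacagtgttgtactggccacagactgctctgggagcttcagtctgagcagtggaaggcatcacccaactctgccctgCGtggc
Grm6: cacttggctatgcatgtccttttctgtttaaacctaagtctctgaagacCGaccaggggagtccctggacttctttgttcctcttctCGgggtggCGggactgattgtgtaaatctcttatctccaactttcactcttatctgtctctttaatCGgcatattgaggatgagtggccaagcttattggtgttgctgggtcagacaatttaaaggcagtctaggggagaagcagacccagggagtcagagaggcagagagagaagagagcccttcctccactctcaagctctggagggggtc
Dlg2, which is as poor in CG dinucleotides in its richest window, was nevertheless well expressed, at a median of 323 CPM.

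The depth was between 35778879 and 52520279 counts per mouse, and the 32 genes together took 0.464% to 0.776% of them. All 32 were among the 21724 genes that passed the filter on low counts. Every marker of pyramidal neurons, interneurons and astrocytes on the lists was counted in all mice, which by itself does not tell the hippocampus from other brain tissue. Some libraries stood apart, in 3 sets that share S158, S176 and S178 in part. Mice S158, S176 and S178, all males, had summed levels of 6 thalamus markers of 492, 457 and 444 CPM, against 61.9 to 102 CPM in the other 17 mice. Their summed pyramidal neuron markers were 2990, 3230 and 4452 CPM, against 4054 to 6462 CPM in the others. Mice S147, S148, S156, S157 and S158, all hAPOE3, had summed levels of 68 nuclear oxidative phosphorylation genes between 10340 and 11410 CPM, against 7233 to 9149 CPM in the other 15. The hAPOE4 males S175, S176, S177 and S178 had summed levels of 6 oocyte markers of 91.3, 52.1, 61.7 and 45.2 CPM, against 1.03 to 2.21 CPM in the other 16 mice. S158 and S176 also had the highest oligodendrocyte sums, 12670 and 8977 CPM against 3949 to 6097 CPM in the other 18, and S158 had 289.6 CPM of striatum markers against 27.5 to 88.8 CPM in the other 19. The sets were defined from the libraries after the data were seen. The first holds males only, the second hAPOE3 mice only and the last hAPOE4 males only, so results are also given without them, and their part in the results was otherwise not tested. Leaving out the last set leaves 1 hAPOE4 male, which is then assumed to vary like the other groups. Choroid plexus markers, the epithelium of the ventricles, summed to between 70.4 and 6377 CPM. Group medians were 122.9 and 149.5 CPM in hAPOE3 and hAPOE4 males, against 2655 and 4541 CPM in hAPOE3 and hAPOE4 females. The groups overlapped, with 76.8 to 3283 CPM in hAPOE3 males and 70.4 to 3845 CPM in hAPOE3 females. This tissue was thus unevenly spread over the sexes, and its part in the sex comparisons was not tested.

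Divided by the union of a gene's exons, the AMPA receptor subunits Gria1 and Gria2 had the highest levels: Gria1 stood at 139 ± 25.2 CPM per kilobase (SD, n = 20), Gria2 at 62.3 ± 12.3 and the scaffold gene Shank1 at 61.8 ± 11.7, and the last 2 did not differ beyond their spread. Next came Grin1, the obligate NMDA receptor subunit, at 49.2 ± 8.27 and Grik5, a kainate receptor subunit, at 42.9 ± 6.46. Dlg4 reached 34.9 ± 4.18, Dlg3 31.0 ± 3.21, Shank3 26.8 ± 5.13, Gria3 24.6 ± 4.05, Grm5 24.2 ± 6.03 and Shank2 19.7 ± 3.57 CPM per kilobase.
Dlg2, Grin2b and Grin2a lay next to each other at 18.8 ± 3.66, 18.4 ± 5.13 and 17.8 ± 4.33 CPM per kilobase, differences well within their spread. Grm3, Grin2c, Gria4, Dlg1, Grm2 and Homer1 ranged from 12.4 to 10.4 CPM per kilobase. Grid1, Grik4, Grm7, Grik2 and Grik3 ranged from 9.24 to 6.59 CPM per kilobase. The rest, Grik1 among them, were scarcer: Grin2d stood at 3.27, Grin3a at 3.23, Grm4 at 2.58 and Grm8 at 0.980 CPM per kilobase.
Grin3b and Grm6, genes best known from motor neurons and from the retina, were barely detected, at 0.126 and 0.0486 CPM per kilobase. Their counts per mouse ran from 4 to 82 for Grin3b and from 5 to 20 for Grm6. The place of a gene in this order depends on the length used. Gria1 was 1st by the longest transcript too but 7th by the median transcript, Gria2 was 3rd by both, and Grin1 was 2nd by the longest and 9th by the median. Grin2b was 13th by the union of its exons, 16th by its longest transcript and 1st by the median length of its annotated transcripts, several of which are short fragments. 20 members reached 10 CPM per kilobase by union length.

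**Figure D1:**
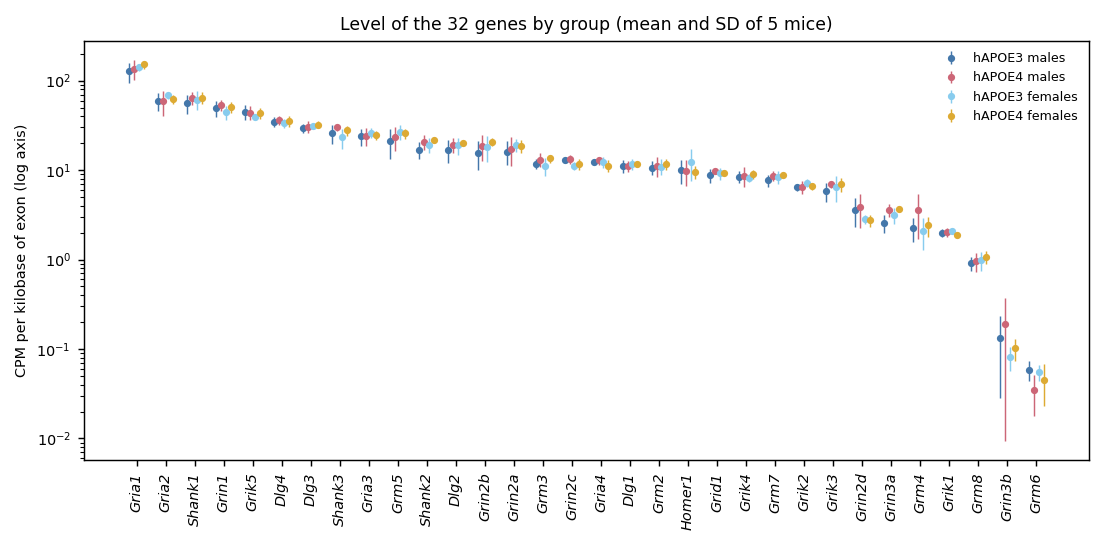
Mean level of each gene in CPM per kilobase of exon, on a log axis, for the 4 groups of 5 mice, with bars of 1 SD. Lower bars that would reach 0 are shortened. The 4 group means of a gene lie close together beside the range from Gria1 at 139 to Grm6 at 0.0486 CPM per kilobase over all mice.

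The median coefficient of variation of the levels over the 20 mice was 18.2% for all 32 members and 20.3% for all tested genes. With a mean of at least 1 CPM it was 18.1% for 30 members and 16.3% for 16168 genes. Among those 30 members it was lowest for Grik1 at 8.87%, Dlg3 at 10.3% and Grik2 at 11.8%. It was highest for Grm4 at 46.1%, Grin2d at 33.6% and Homer1 at 31.8%. Some members followed the mice with thalamus markers. Gria2 was at 565, 586 and 620 CPM in S158, S176 and S178 and between 858 and 1186 CPM in the other 17 mice. Grin2a was at 172, 219 and 162 CPM in them and between 251 and 426 CPM in the others, and Dlg3 was the third member lower in all 3 than in any other mouse. Grin2d, an NMDA receptor subunit found in interneurons and in the diencephalon, went the other way, with 38.9, 42.6 and 30.1 CPM in those mice and 14.8 to 24.3 CPM in the others. Grin3b was the other member higher in all 3. Such separation of the 3 mice occurred for 3 members below and 2 above, against 2.93% and 3.66% of all tested genes. S158 alone held the lowest level of 14 of the 32 members. No member separated the 5 mice with high nuclear oxidative phosphorylation transcripts from the other 15, where 2.36% of tested genes did so below and 3.31% above.

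**Figure D2:**
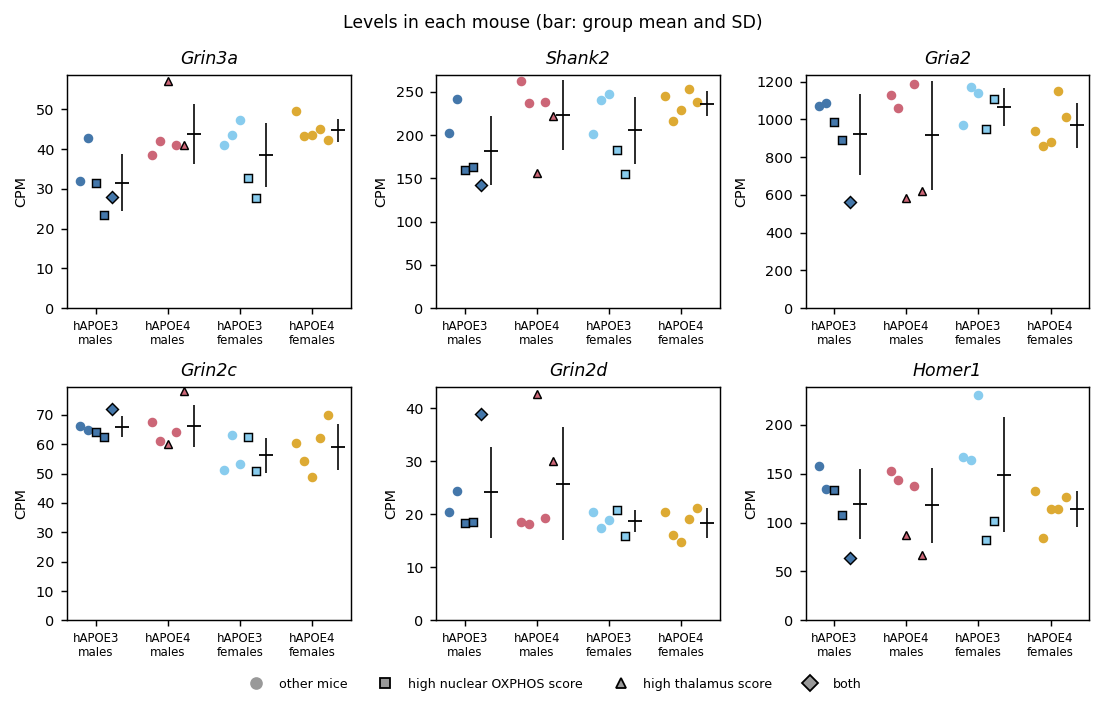
Level in CPM of 6 genes in each of the 20 mice by group, with the group mean and SD as a bar beside the points and a linear axis from 0. Symbols mark the mice with high thalamus markers (S176, S178), high nuclear oxidative phosphorylation (OXPHOS) transcripts (S147, S148, S156, S157) or both (S158). Gria2 is low and Grin2d is high in the 3 mice with thalamus markers, and the 5 hAPOE3 mice with high OXPHOS scores lie at the low end of Grin3a and Shank2.

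No member differed between the APOE genotypes past the threshold of edgeR. Averaged over the sexes, edgeR called 0 of 32 members at an adjusted p under 0.05, where 2.45% of the 21724 tested genes were called, and DESeq2 called 1 of 32, Grin3a, where its background was 4.83%. At an unadjusted p under 0.05 there were 4 members by edgeR and 5 by DESeq2, where the shares of all genes were 17.9% and 14.4%. By direction, 24 members were higher and 8 lower in hAPOE4 mice, with a median log2 fold change of 0.08 against 0.00 over all tested genes. All 7 NMDA receptor subunits had positive estimates, from 0.03 to 0.43, while 3 of the 4 AMPA receptor subunits had negative ones, and edgeR called none of them. Among the NMDA receptor subunits Grin3b rested on few counts, and the estimate of Grin2b turned negative with gene length offsets. The split by family without the mice that stood apart is not given here. For 27 members the 95% interval lay within a 1.5-fold change either way, and the median half-width of the interval was 0.24 on the log2 scale.

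Grin3a, which codes for a glycine-binding NMDA receptor subunit that lowers calcium flow, had the smallest p. Its levels were 31.9, 42.9, 31.4, 23.5 and 28.1 CPM in the hAPOE3 males and 38.5, 41.9, 57.1, 41.0 and 41.0 CPM in the hAPOE4 males. In females they were 41.1, 43.6, 47.3, 32.7 and 27.7 CPM with hAPOE3 and 49.6, 43.4, 43.7, 45.0 and 42.2 CPM with hAPOE4. The groups overlapped in both sexes, and the 6 lowest values belonged to hAPOE3 mice. The log2 fold change of the genotype was 0.35 (SE 0.11), with an adjusted p of 0.088 by edgeR and 0.049 by DESeq2. The difference was 0.48 (SE 0.15, adjusted p 0.27) in males and 0.22 (SE 0.15, adjusted p 0.69) in females, and the interaction was -0.26 (SE 0.21, adjusted p 1.00). Over the alternatives the genotype estimate kept its sign and lay between 0.13 and 0.42. It was lowest without the 5 hAPOE3 mice with high nuclear oxidative phosphorylation transcripts (0.13, SE 0.10, adjusted p 0.54), and it passed the threshold without the hAPOE3 male S155 (0.42, adjusted p 0.026).

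Of the 4 members next in p, 3 had estimates within 0.02 of 0 without those 5 mice. Shank2, a scaffold gene, was at 202, 242, 160, 163 and 143 CPM in hAPOE3 males and 263, 237, 155.9, 239 and 223 CPM in hAPOE4 males. In females it was at 202, 241, 247, 183 and 155.4 CPM with hAPOE3 and 245, 216, 229, 253 and 238 CPM with hAPOE4. Its log2 fold change was 0.25 (SE 0.11, adjusted p 0.23) and was 0.02 without the same 5 hAPOE3 mice. The estimates of Shank3 (0.24, SE 0.12, adjusted p 0.28) and Grm3 (0.22, SE 0.10, adjusted p 0.28), a receptor also made by astrocytes, became -0.01 and 0.01 without them. Grm6 had an estimate of -0.51 (SE 0.24, adjusted p 0.28) on counts of 20 or fewer in every mouse.
The direction over all members depended on the same mice. Without those 5 mice the split of 24 higher and 8 lower became 9 higher and 23 lower, the median went from 0.08 to -0.06, and 15 of the 32 estimates changed sign. In males the split went from 28 higher and 4 lower to 6 higher and 26 lower. That fit kept only S154 and S155 as hAPOE3 males, and only S144, S145 and S146 as hAPOE3 females. With the oxidative phosphorylation score as a covariate 20 members were higher and 12 lower in males, with a median of 0.02. Averaged over the sexes, the same covariate gave 22 higher and 10 lower, with a median of 0.05. Without the 4 hAPOE4 males with oocyte markers 26 were higher and 6 lower, and edgeR again called 0 members. What sets those mice apart was not tested.

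Within one sex the picture was the same. In males 0 of 32 members were called by edgeR (background 0.621%) or DESeq2 (background 1.21%), with 3 at an unadjusted p under 0.05 by edgeR and 2 by DESeq2, where 9.06% and 8.07% of all genes were. Besides Grin3a these were Grm6 (-0.75, SE 0.35, adjusted p 0.53) and Grm4 (0.67, SE 0.32, adjusted p 0.54). Grm4, a release-damping receptor, was at 40.9 CPM in S176 and at 7.02 to 20.03 CPM in the other 9 males. Without S176 its estimate was 0.29, and without the 4 hAPOE4 males with oocyte markers it was -0.06. Shank2 (0.30, SE 0.15, adjusted p 0.56) and Grm7 (0.17, SE 0.12, adjusted p 0.65) followed. In females 0 of 32 were called by edgeR (background 0.667%) or DESeq2 (background 1.37%), and 0 reached an unadjusted p under 0.05 by either tool, where 10.1% and 8.05% of all genes did. The smallest p values belonged to Grm3 (0.28, SE 0.15, adjusted p 0.55), Grik1 (-0.15, SE 0.09, adjusted p 0.63), Shank3 (0.26, SE 0.17, adjusted p 0.65), Grin3a, and Homer1 (-0.39, SE 0.27, adjusted p 0.69). Homer1, whose short form is induced by activity, was at 230 CPM in the hAPOE3 female S146 and between 82.0 and 166.8 CPM in the other 9 females. Without S146 its estimate was -0.18, and without the 5 hAPOE3 mice with high nuclear oxidative phosphorylation transcripts it was -0.72.

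**Figure D3:**
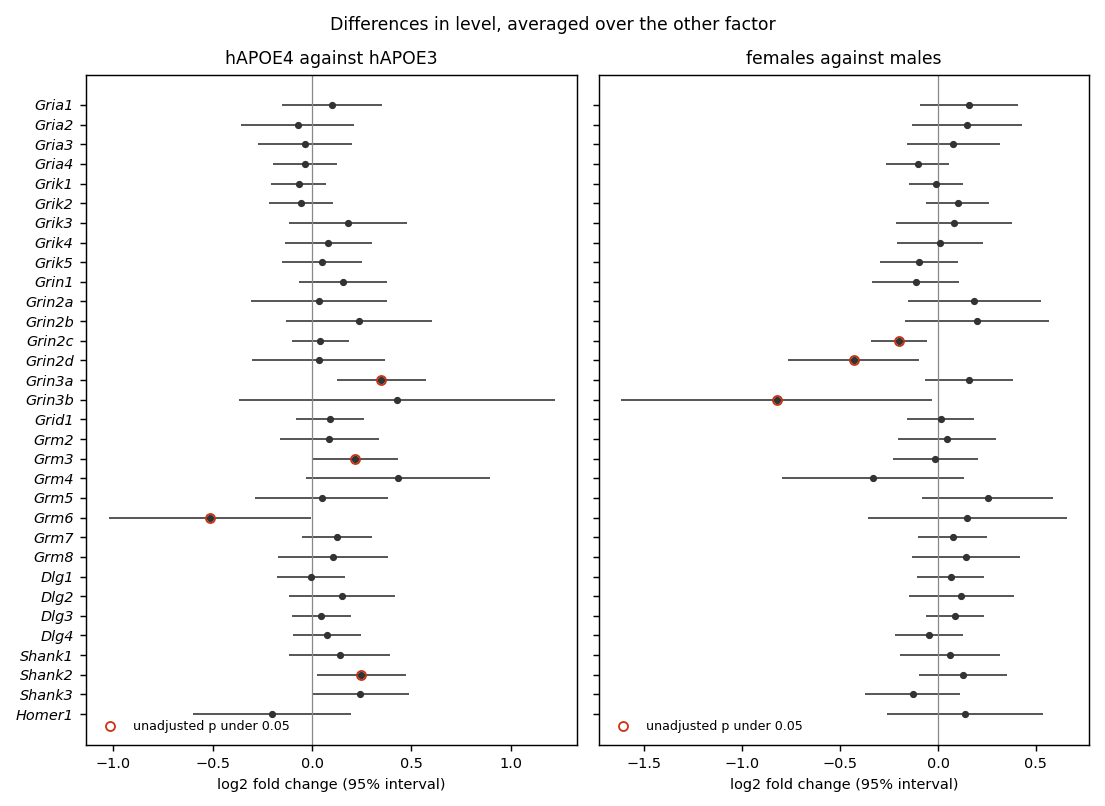
Log2 fold changes of the 32 genes with 95% intervals from edgeR, for hAPOE4 against hAPOE3 averaged over sexes (left) and females against males averaged over genotypes (right). Red circles mark unadjusted p under 0.05, which 4 and 3 genes reached, and none passed after adjustment.

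Chromosomal sex gave no called member either. Averaged over the genotypes 0 of 32 members were called, where edgeR called 0.129% of tested genes and DESeq2, also with 0 members, called 0.72%. 3 members reached an unadjusted p under 0.05 by each tool, against 10% of tested genes by edgeR and 8.44% by DESeq2. All 3 were NMDA receptor subunits and lower in females: Grin2c (-0.20, SE 0.07, adjusted p 0.33), Grin2d (-0.43, SE 0.16, adjusted p 0.36) and Grin3b (-0.82, SE 0.38, adjusted p 0.48). Grm5 (0.25, SE 0.16, adjusted p 0.63) and Grm4 (-0.33, SE 0.22, adjusted p 0.66) followed, and without S176 the estimate of Grm4 was -0.14. Over all members 21 were higher and 11 lower in females, with a median of 0.07. Choroid plexus markers also had higher medians in females, and their part in these estimates was not tested.

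Grin2c was at 66.1, 65.0, 64.3, 62.5 and 71.9 CPM in hAPOE3 males and 51.3, 63.2, 53.2, 62.4 and 50.9 CPM in hAPOE3 females. It was at 67.7, 61.2, 60.2, 64.3 and 78.1 CPM in hAPOE4 males and 60.3, 54.3, 48.9, 62.2 and 69.8 CPM in hAPOE4 females. The sexes overlapped in both genotypes. The estimate stayed between -0.23 and -0.16 over the alternatives and did not pass in any, and it was -0.16 without the 3 mice with thalamus markers.
Grin2d was at 20.4, 24.3, 18.4, 18.6 and 38.9 CPM in hAPOE3 males and 18.6, 18.2, 42.6, 19.4 and 30.1 CPM in hAPOE4 males. In females it was at 20.4, 17.5, 18.9, 20.9 and 16.0 CPM with hAPOE3 and 20.5, 16.1, 14.8, 19.1 and 21.2 CPM with hAPOE4. The 3 high values were those of S158, S176 and S178. Without these mice the estimate of Grin2d was -0.07 (SE 0.09, adjusted p 0.94), and that of Grin3b was -0.03.
The direction over all members turned as well. Without the 3 mice 8 members were higher and 24 lower in females, with a median of -0.04, and 15 estimates changed sign. With the thalamus score as a covariate 7 were higher and 25 lower. Without the 4 hAPOE4 males with oocyte markers 11 were higher and 21 lower, and edgeR again called 0 members.

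In hAPOE3 mice 0 of 32 members were called between the sexes by edgeR (background 0.0414%) or DESeq2 (background 0.0856%). 1 reached an unadjusted p under 0.05 by each tool, where 5.22% and 4.62% of all genes did: Grin2c at -0.23 (SE 0.10, adjusted p 0.81). Grin3a (0.29, SE 0.15), Grin2d (-0.37, SE 0.23), Grm5 (0.36, SE 0.23) and Grik2 (0.16, SE 0.11) followed, each at an adjusted p of 0.81. In hAPOE4 mice 0 of 32 were called by edgeR (background 0.437%) or DESeq2 (background 0.916%). 1 reached an unadjusted p under 0.05 by each tool, where 5.8% and 5.59% of all genes did: Grin2d at -0.49 (SE 0.23, adjusted p 0.81). Grm4 (-0.57, SE 0.31), Gria4 (-0.19, SE 0.11), Grin3b (-0.90, SE 0.53) and Grin2c (-0.17, SE 0.10) followed, at adjusted p of 0.95 to 0.99. Without S158, S176 and S178 the estimate of Grin2d in hAPOE4 mice was -0.01, and that of Grin3b turned to 0.11. That of Grm4 was -0.19 without S176 and -0.07 without all 3.
The difference between the sexes in the effect of genotype was not called for any member by edgeR (0 of 32, background 0.184%) or DESeq2 (background 0.382%), and 0 members reached an unadjusted p under 0.05 by either tool, where 2.54% and 2.67% of all genes did. The smallest p belonged to Grik1 (-0.17, SE 0.13), Grin3a, Gria4 (-0.18, SE 0.15), Grm4 (-0.47, SE 0.45) and Homer1 (-0.37, SE 0.38), each at an adjusted p of 1.00. The estimate of Grm4 was -0.10 without S176 and that of Homer1 was -0.16 without S146. For 18 of the 32 members the interval lay within 1.5-fold.

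The balance of partner subunits was compared as a ratio of counts within each mouse, which needs no library size. The ratio of Grin2a to Grin2b had medians of 0.746 (hAPOE3) and 0.660 (hAPOE4) among males, and of 0.727 (hAPOE3) and 0.658 (hAPOE4) among females. The log2 difference of hAPOE4 from hAPOE3 was -0.25 (SE 0.09, n = 20), with p = 0.010 in an exact two-sided permutation within sexes and 0.083 after adjustment over the 8 ratio tests. It was -0.09 without the 5 hAPOE3 mice that stood apart, and it reversed with the unit. From normalized counts, in which factors read here as transcript lengths are divided out, the difference was 0.36 (adjusted exact p 0.59), and the medians were 0.547 and 0.914 in hAPOE3 and hAPOE4 males and 0.710 and 0.844 in hAPOE3 and hAPOE4 females.
The ratio of Gria1 to Gria2 bears on calcium permeability of AMPA receptors. Its medians were 0.879 (hAPOE3) and 0.941 (hAPOE4) among males, and 0.837 (hAPOE3) and 0.973 (hAPOE4) among females, a log2 difference of 0.19 (SE 0.08, exact permutation p = 0.032, adjusted 0.13). It was 0.06 with normalized counts. The ratios of Dlg4 to Dlg2 (-0.10, SE 0.12, adjusted exact p 0.60) and of Grm3 to Grm2 (0.15, SE 0.15, adjusted exact p 0.60) did not pass for genotype. The 4 sex differences ranged from -0.19 for Dlg4 to Dlg2 to 0.01 for Grin2a to Grin2b, at adjusted exact permutation p from 0.30 to 1.00.

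**Figure D4:**
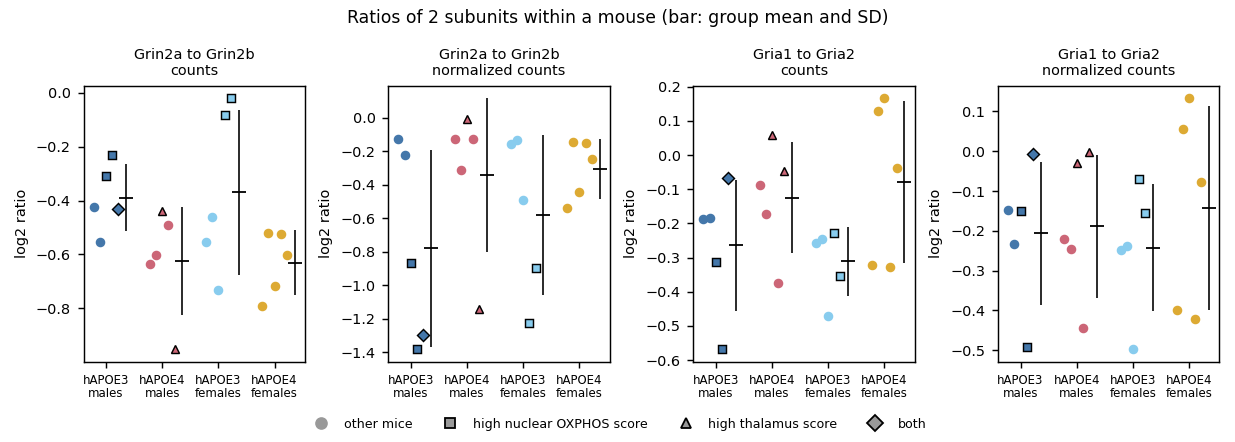
Log2 ratio of Grin2a to Grin2b and of Gria1 to Gria2 in each mouse by group, from counts and from the deposited normalized counts, with group mean and SD as bars and a scale of its own in each panel. The hAPOE3 mice with high OXPHOS scores lie high for Grin2a to Grin2b in counts, except S158, and low in normalized counts.

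The 2 units differ by a factor for each gene and mouse. Dividing each count by its normalized count and centring on each mouse and gene gives the average length of a gene's transcripts in a mouse relative to other mice, as far as the factors came from transcript lengths. The SD over mice had a median of 0.00225 on the log2 scale for 2899 genes with 1 annotated transcript and 0.0683 for 14408 genes with several. Of the members, 30 had at least 10 counts in every mouse, with a median SD of 0.05, the same as for all 17810 genes measured. Grin2b varied most among the members. Its SD was 0.56, larger than that of 99.6% of genes, and its values spanned a 3.07-fold range.
The relative length of Grin2b was 0.681, 0.458 and 0.552 in S156, S157 and S158 and 0.458 and 0.553 in S147 and S148, the 5 hAPOE3 mice with high nuclear oxidative phosphorylation transcripts. It was 0.884 in the hAPOE4 male S178 and between 1.17 and 1.41 in the other 14 mice. The 5 mice lay below the other 15. The annotation gives Grin2b a transcript of 24060 nt and another of 7484 nt among others, all within chromosome 6, 135713233 to 136173511 on the minus strand. Grid1 followed the same mice at a smaller scale, with 0.725, 0.820, 0.877, 0.756 and 0.719 in S147, S148, S156, S157 and S158, 0.858 in S178 and 1.05 to 1.17 in the others. Shank1 went the other way, with 1.125 to 1.175 in the 5 mice and 0.867 to 1.06 in the others.
The difference of Grin2b between the genotypes was 0.59 (SE 0.22, limma adjusted p 0.15) and was -0.02 without the 5 mice. The level of Grin2b depended on this correction. Its log2 fold change of hAPOE4 against hAPOE3 was 0.24 in counts and -0.32 (SE 0.13, edgeR adjusted p 0.20) with gene length offsets, and neither passed.

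Gria2 was the only member whose relative transcript length passed the test, for genotype averaged over the sexes (1 of 30 members, background 3.9%). It was 1.03, 0.970, 1.11, 1.06 and 1.04 in hAPOE3 males and 0.918, 0.955, 0.944, 0.947 and 1.02 in hAPOE4 males. In females it was 1.00, 1.01, 0.974, 1.12 and 1.15 with hAPOE3 and 0.946, 0.953, 0.981, 0.940 and 0.972 with hAPOE4. The groups overlapped in each sex, and the highest values again belonged to the 5 hAPOE3 mice. The log2 difference was -0.13 (SE 0.03, limma adjusted p 0.032), or -0.06 (adjusted p 0.36) without those 5 mice and -0.14 (adjusted p 0.064) without the 3 mice with thalamus markers. Without the 4 hAPOE4 males with oocyte markers it was -0.16 (adjusted p 0.14). When each of the 20 mice was left out in turn the difference stayed between -0.14 and -0.11, with adjusted p from 0.016 to 0.065, and it missed the threshold for 12 of the 20, so the call stood close to its limit. Annotated transcripts of Gria2 include one of 10371 nt and one of 4026 nt. In the other comparisons limma called 0 of 30 members. The background was 0.393% for genotype in males, 0.685% for genotype in females, 0.00561% and 0.152% for sex in hAPOE3 and hAPOE4 mice, 0.0112% for sex averaged over genotypes and 0.00561% for the interaction. At an unadjusted p under 0.05 there were 4, 9, 3, 0, 1 and 1 members in the same order, where 12.2%, 19.1%, 9.39%, 7.14%, 4.08% and 12.7% of all genes were. For genotype averaged over the sexes there were 11, where 20.1% were. The smallest adjusted p in the comparisons without a call was 0.053, for Grin1 in females (0.04, SE 0.01).

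**Figure D5:**
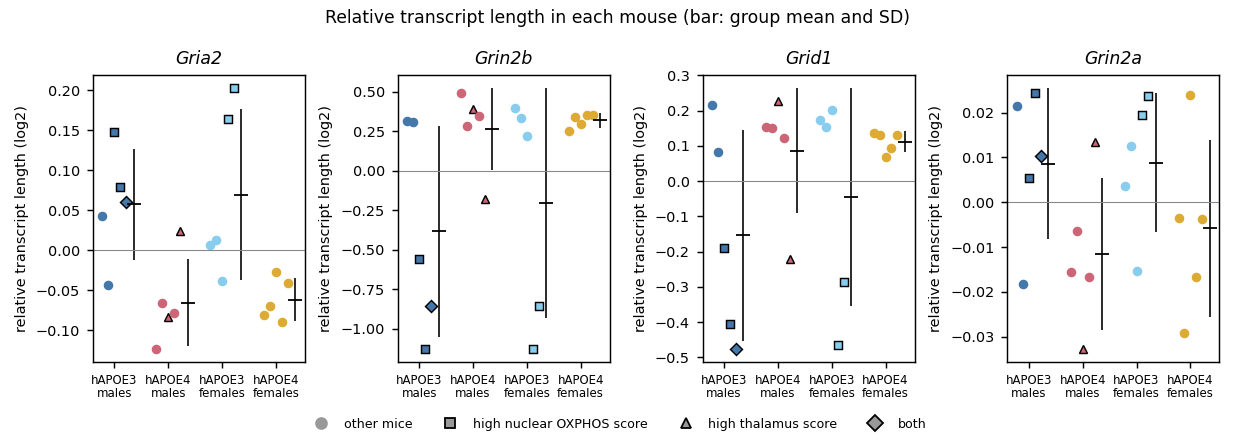
Relative transcript length on the log2 scale of Gria2, Grin2b, Grid1 and Grin2a in each mouse by group, with group mean and SD as bars and a scale of its own in each panel. Grin2b and Grid1 are short in the 5 hAPOE3 mice with high OXPHOS scores and in S178, and Grin2a stays within 0.04 of 0.

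Other genes of the glutamatergic synapse gave few calls. Of 61 partner genes on 7 lists, all of which were tested, edgeR called 0 in any of the 7 comparisons and DESeq2 called 1, Glul, for genotype averaged over the sexes (background 4.83%). By edgeR 5 had an unadjusted p under 0.05 between genotypes averaged over the sexes, where 17.9% of all genes did, and 8 between the sexes averaged over genotypes, where 10% did. In each of the other comparisons 2 to 5 did so, where the shares of all genes ran from 2.54% to 10.1%. The smallest p between genotypes belonged to Glul, the astrocytic enzyme that turns glutamate into glutamine (0.20, SE 0.06, adjusted p 0.090 by edgeR and 0.012 by DESeq2). The list of 16 auxiliary and trafficking genes of AMPA receptors held 3 of those 5 genes, Cacng2 (-0.17, SE 0.07), Shisa9 (0.14, SE 0.06) and Cacng8 (0.35, SE 0.16), with 8 genes higher and 8 lower. Of the 11 activity-regulated genes 10 were lower in hAPOE4 mice, with a median of -0.29, and 1 had an unadjusted p under 0.05. That gene was Npas4 (-0.41, SE 0.18, adjusted p 0.22 by edgeR). Whether this direction held without the 5 hAPOE3 mice that stood apart was not tested. Between the sexes the vesicular transporter Slc17a6, itself on the thalamus list, had an estimate of -0.95 (SE 0.32, adjusted p 0.32).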

How the data were processed

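Hippocampal RNA of 20 mice was measured by polyA RNA sequencing. Per the study's methods and the submitters' processing notes, the authors used Salmon 0.91 to quantify reads against mouse cDNA, and tximport to sum transcripts to genes. The table they deposited holds the estimated counts as whole numbers. The authors also deposited normalized counts (a signal) from DESeq2, where a factor specific to gene and mouse had been divided out. How those factors were made was not retraced. All columns were matched to mice by name, and 0 were left out.

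The test of counts was the quasi-likelihood test of edgeR 4.0.16 (R 4.3.3; filterByExpr, TMM) with 4 group means over all 20 mice, Benjamini-Hochberg adjustment over 21724 genes and a threshold of 0.05. CPM values are TMM-normalized. Relative transcript length was tested with limma 3.58.1 on genes with at least 10 counts in each mouse, and ratios by exact permutation of labels within the other factor. The scripts were tested on simulated data. For genotype in males, edgeR called 22.9% of genes given a 1.5-fold change, 75.5% at 2-fold and 94% at 4-fold. Of its calls 2.16% were false. A count of 0 called members therefore does not exclude changes near 1.5-fold. For relative transcript length, limma called 62.5% of genes given a 1.41-fold change, with 5.3% of calls false. The share of false calls in the measured libraries, where sets of mice stood apart, was not tested for edgeR or limma. Positions are those of GENCODE M21 (GRCm38), in which 31059 of 33119 symbols were found. Alternatives were DESeq2 1.42.0, its size factors, no filter on low counts, no mitochondrial genes, gene length offsets, an oxidative phosphorylation covariate, fits of only the groups compared, group medians, normalized counts, at least 100 counts, other transcript lengths, and each mouse left out. Leaving out the mice that stood apart and the thalamus covariate were chosen after seeing the data. Members and lists were chosen with earlier results of these data known. All 32 members are named, and fold changes are given for the 5 members with the smallest p in each comparison. Values of other genes were added after they were seen. Replicates are separate animals, so p-values measure the spread between animals.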

Additional observations from a re-analysis of the deposited data

Results flagged for a closer look

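Within a group of 5 mice, 1 value stood far from the other 4 in 7 of 160 cases examined, and chance alone gives about 1 in 20. The cases covered the level of every member and the ratios of counts. Relative transcript length was examined only for Gria2, Grin2b, Grid1 and Grin1, which were picked, and Grin2b and Grid1 varied most among the members. Grin3a was at 57.1 CPM in the hAPOE4 male S176, against 38.5 to 42.0 CPM in the rest of its group. In the same group Grm7 was at 39.0 CPM in S178, against 52.1 to 57.4 CPM, and the relative transcript length of Grid1 was 0.858 in S178, against 1.09 to 1.17. Grm8 was at 6.04 CPM in the hAPOE3 male S158, against 9.48 to 9.95 CPM. These 3 mice are those with high thalamus markers, which held 4 of the 7 cases. In hAPOE4 females Gria1 was at 752 CPM in S164, against 919 to 990 CPM. In S167 of that group Grik2 was at 103 CPM, against 81.5 to 87.0 CPM, and Grm7 was at 56.8 CPM, against 50.4 to 51.9 CPM.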

How the results depend on the processing

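Each group had 5 mice, and Grin3b and Grm6 rested on few counts. Whether greater depth would change a call was not tested. The cause of the changes listed here was not tested. No paired analysis was possible because replicate numbers were given in accession order and pair no animals. DESeq2 called 1 member (Grin3a) and 1 partner gene (Glul) for genotype averaged over the sexes, and the thalamus covariate called 1 partner gene (Cacng8) there. With each mouse left out in turn, members called numbered 0 to 1 for genotype in males and 0 to 1 averaged over the sexes, the 1 being Grin3a without the hAPOE3 male S155. Partner genes called for genotype in males numbered 0 to 1, the 1 being Shisa9 without S158. The other alternatives called 0 members.

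By relative transcript length, a minimum of 100 counts gave 1 called member for genotype in females and 3 averaged over the sexes. Leaving out mice is a separate alternative to the main test, which called 1 member averaged over the sexes. That count was 0 without S158, S176 and S178 and 0 without the 5 hAPOE3 mice that stood apart. It was also 0 without S175, S176, S177 and S178. With each mouse left out in turn, members called numbered 0 to 1 in females and 0 to 3 averaged over the sexes.

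Without those 5 mice the log2 fold change of Shank2 (-0.000723) and Grm7 (-0.0469) in males, that of Shank3 (-0.0126) averaged over the sexes, and the relative length of Grin2b (-0.0233) turned sign. The sex difference of Grin3b in hAPOE4 mice turned to 0.0427 with the thalamus covariate and 0.107 without S158, S176 and S178. Without the hAPOE4 males S175, S176, S177 and S178, which leaves 1 such male, it turned to 0.0200, and the estimates of Grm4 turned to -0.0585 for genotype in males, 0.165 for sex in hAPOE4 mice, 0.0359 for sex averaged over genotypes and 0.259 for the interaction, where Grik1 turned to 0.0882.

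The genotype difference of Grin2a to Grin2b turned to 0.36 with normalized counts and was -0.29 to -0.20 with each mouse left out, where it passed without S146 (adjusted exact p 0.010) and without S177 (0.046). That of Gria1 to Gria2 was 0.15 to 0.22, and passed without S177. That of Dlg4 to Dlg2 turned to 0.14 without the 5 mice. The sex differences, all far from the threshold, turned sign often. Grin2a to Grin2b was -0.0206 with group medians, -0.0232 without the 3 mice with thalamus markers, -0.0508 without the 5 mice and -0.0375 to 0.0513 with each mouse left out. Gria1 to Gria2 was 0.0054 with normalized counts, 0.0674 without the 3 mice and -0.0385 to 0.0307 with each mouse left out. Grm3 to Grm2 was 0.0516 without the 3 mice, 0.0414 without the 5 mice and -0.15 to 0.0018 with each mouse left out.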
